A study of Homo sapiens with 6 samples.

Results

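The genes described here are 32 target genes of the coactivators YAP and TAZ and of the actin cytoskeleton program, followed in A549 cells with and without GPX3 overexpression. They were taken by gene name from the deposited tables, where all 32 were found among 58735 genes; the tables use the older names CYR61 and CTGF for CCN1 and CCN2. A549 is an established human lung adenocarcinoma line. The series holds 6 RNA sequencing libraries of A549 cultures in 2 groups. The group Vector has 3 libraries whose genotype and treatment are given as WT, and the group OE_GPX3 has 3 libraries whose genotype and treatment are given as OE. GPX3 encodes a secreted, selenium-containing glutathione peroxidase. The labels name no construct, selection, clone or time for the overexpression, and leave unsaid whether separate dishes stand behind the 3 libraries of a group. The p-values therefore reflect library-to-library spread, which may be technical. The series title places GPX3 upstream of the Hippo pathway, which makes the target genes of YAP the transcripts at the end of that chain.

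YAP and TAZ carry no DNA-binding domain of their own and act on genes through the TEAD transcription factors. When the Hippo kinases LATS1 and LATS2 phosphorylate YAP and TAZ, the coactivators are held in the cytoplasm and TEAD target genes are transcribed less. The cytoskeletal genes of the set respond to a neighbouring system, in which actin polymerisation frees the myocardin-related factors MRTFA and MRTFB to join the serum response factor SRF. The programs share genes and are both known to respond to cell spreading and tension.

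The promoters of 4 members are shown first because they carry, or lack, the word that TEAD is known to read. The letters searched were GGAATG on both strands for TEAD, the CArG box of SRF in its strict form with no mismatch on both strands, and TGANTCA, the AP-1 word, on both strands. Windows were the 250 bases before a RefSeq start site (GRCh38.p14), and RefSeq entries were found for 23 of the 32 members. The bases below are the stretches of those windows that lie outside every exon of GENCODE release 29, in lower case with complete copies of the TEAD word in capitals.
CTGF, chr6:131951374-131951622, minus strand: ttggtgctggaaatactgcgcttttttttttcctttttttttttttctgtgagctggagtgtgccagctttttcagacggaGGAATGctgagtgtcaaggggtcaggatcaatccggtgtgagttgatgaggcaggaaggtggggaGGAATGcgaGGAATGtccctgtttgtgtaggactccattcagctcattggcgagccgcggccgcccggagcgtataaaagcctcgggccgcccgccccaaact
ANKRD1, chr10:90921277-90921337, minus strand: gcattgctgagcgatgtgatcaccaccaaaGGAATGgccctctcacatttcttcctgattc
ACTA2, chr10:88952774-88953023, minus strand: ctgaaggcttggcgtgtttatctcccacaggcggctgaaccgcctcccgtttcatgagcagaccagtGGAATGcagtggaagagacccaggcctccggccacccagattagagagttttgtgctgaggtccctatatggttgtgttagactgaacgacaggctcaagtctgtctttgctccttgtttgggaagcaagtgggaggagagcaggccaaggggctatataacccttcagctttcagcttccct
TPM2, chr9:35690122-35690306, minus strand: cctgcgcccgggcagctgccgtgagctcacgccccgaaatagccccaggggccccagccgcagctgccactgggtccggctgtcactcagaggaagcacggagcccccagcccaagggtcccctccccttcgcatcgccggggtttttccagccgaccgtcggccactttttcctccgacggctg

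CTGF held 3 copies of the TEAD word in its window, ANKRD1 2 copies in the whole window of which 1 lies in the stretch shown, and ACTA2 1 copy at its downstream start. TPM2 held none. Of the 23 members with an entry, 11 had the TEAD word in at least 1 window, namely ACTA2, AMOTL2, ANKRD1, AXL, CTGF, EDN1, FOXF2, NUAK2, TGFB2, THBS1 and VCL. Among all windows of that length, 11.9% of 35116 held it, against 11 of the 33 windows of members, and 0.0826% held 3 or more copies. The strict CArG box stood in 1 of the 33 windows of members, that of FLNA, and in 1.16% of all windows. Looser forms with a mismatch, which SRF is also known to bind, were not searched, in ACTA2 or elsewhere. The ACTA2 stretch shown holds ccctatatgg and ccttgtttgg, which have such a looser form, so it does not lack them. The AP-1 word stood in 2 of the 33 windows, those of ANKRD1 and F3, and in 6.57% of all windows. These matches describe letters only, and members were chosen as known targets.

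GPX3 checked the labels: Vector had 36.5 ± 2.91 CPM and OE_GPX3 1234 ± 178 CPM (n = 3 libraries each, ± SD). CPM are counts per 1000000 counts of tested genes, scaled between libraries by TMM factors. Total counts ranged from 15831693 to 18751815 per library. The mean squared difference between replicates per gene, in units of counting noise, was 7.48 to 9.55 among the Vector libraries and 9.71 between OE_GPX3 replicates 2 and 3, but 15.1 and 20.5 between OE_GPX3 replicate 1 and those 2, so that library stood apart within its group. The 9 markers of A549 as an epithelial line summed to between 40140 and 42870 CPM in Vector and between 42960 and 52280 CPM in OE_GPX3, ranges that did not overlap. The part of these markers in the results below was not tested. The other cell types' markers were low: 8 fibroblast markers summed to 4.74 to 4.94 CPM in Vector and 3.54 to 7.24 in OE_GPX3, of which COL1A1 gave most, and 7 endothelial markers to 0.395 to 0.978 and 0.617 to 1.30 CPM, with KDR at 0 counts. The 8 blood cell markers summed to 12.6 to 17.1 CPM in Vector and 16.2 to 18.2 in OE_GPX3, nearly all from CD14. The 6 smooth muscle markers summed to 31.01 to 35.7 CPM in Vector and 31.3 to 42.3 in OE_GPX3, and SMTN and SYNPO2 gave most of it. In bulk RNA, fewer cells of a type and less RNA per cell cannot be told apart.

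A549 cells transcribed the members over a wide range of levels. Per gene length, FLNA, the actin cross-linker filamin A, was the highest at 286 ± 24.3 FPKM in Vector and 336 ± 33.4 FPKM in OE_GPX3 (SD, n = 3 each). CAVIN1, a coat protein of caveolae, followed at 132 ± 17.3 and 162 ± 14.1 FPKM, and TPM2, a tropomyosin, at 87.9 ± 8.05 and 115 ± 8.29 FPKM (SD, n = 3 each). The levels of these 3 did not meet in Vector, while MYOF at 47.7 ± 6.86 FPKM overlapped both CAV1 at 50.7 ± 3.78 and EDN1 at 43.6 ± 3.29 (SD, n = 3 each). Of the textbook YAP targets, CYR61 was at 10.4 ± 1.46 FPKM, CTGF at 5.38 ± 1.396 and ANKRD1 at 1.58 ± 0.315 in Vector (SD, n = 3 each). The 30 members that passed the filter on low counts are described by tests; RBMS3 and CNN1 did not pass it.

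**Figure D1:**
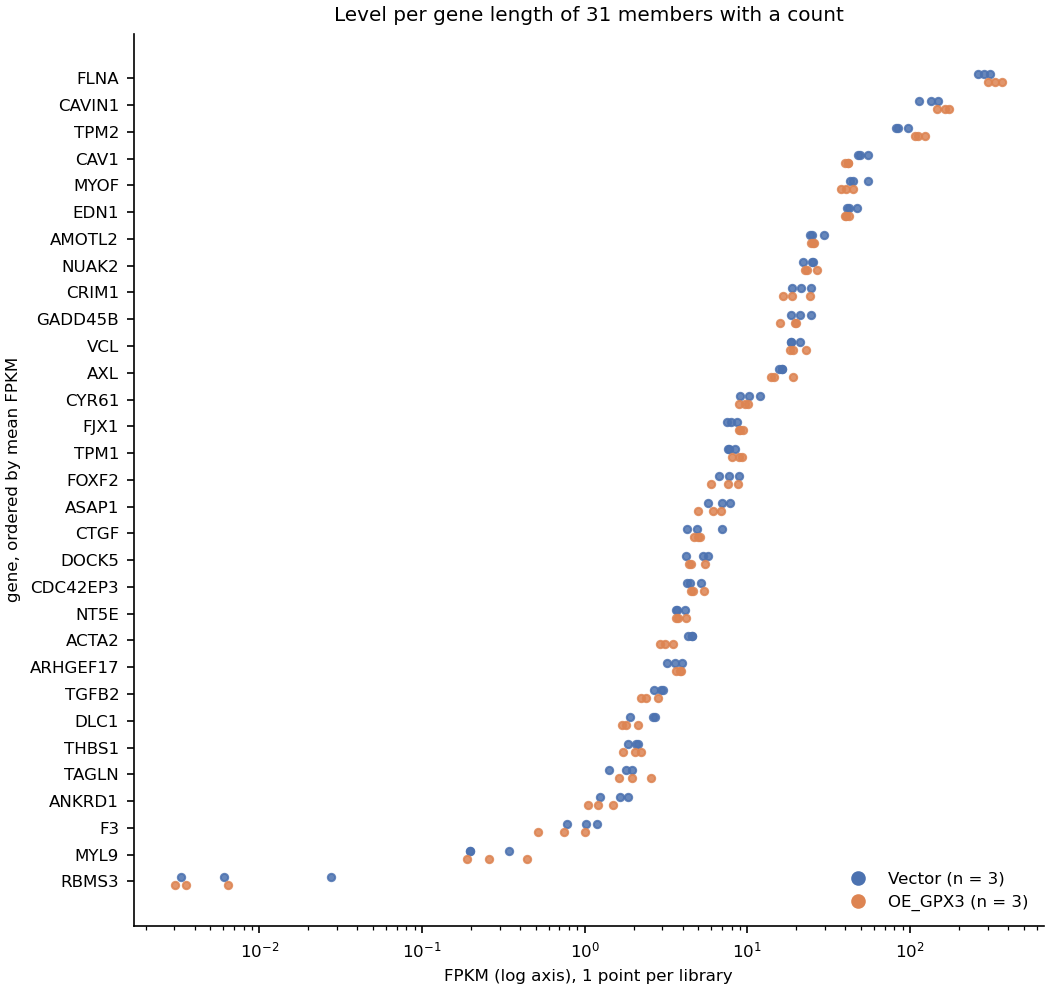
FPKM of the 31 members with a count, on a log axis, with 1 point per library (Vector blue, OE_GPX3 orange) and genes ordered by their mean. FLNA is at the top and RBMS3, with 1 to 10 counts per library, at the bottom; CNN1 had no count and is not drawn.

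None of the 30 tested members differed between OE_GPX3 and Vector at an adjusted p under 0.05 (edgeR's quasi-likelihood test, Benjamini-Hochberg over all 14458 tested genes), where 38 genes, or 0.263%, were called in all, 14 higher (0.0968%) and 24 lower (0.166%). With total counts alone that split was 13 higher and 55 lower, with upper-quartile scaling 14 and 38, and after the GC correction described below 2 and 2. At an unadjusted p under 0.05 there were 6 members in edgeR, 2 higher (TPM2, CAVIN1) and 4 lower (ACTA2, CAV1, DLC1, MYOF), against 14.6% of all tested genes, 6.83% higher and 7.76% lower. DESeq2 called 1 member, TPM2, where it called 1.2% of the genes it gave an adjusted p. It gave none to ANKRD1, F3, MYL9 and TAGLN, so DESeq2 could not call these members. The fitted change was below 0 in 20 of the 30 members, against 52.6% of all tested genes, and the median log2 fold change was -0.08 against -0.02 over all tested genes. Without OE_GPX3 replicate 2 the count below 0 was 15 and the median 0.01, and without Vector replicate 2 they were 18 and -0.03. Without OE_GPX3 replicate 1, the library that stood apart, 4 members were called (TPM2 and CAVIN1 higher, CAV1 and DLC1 lower) where 4.47% of all tested genes were. For 4 of the 30 members the libraries of Vector and OE_GPX3 were fully apart, TPM2 and FJX1 higher and CAV1 and ACTA2 lower in OE_GPX3, against 18.5% of all tested genes, 8.62% higher and 9.9% lower.

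**Figure D2:**
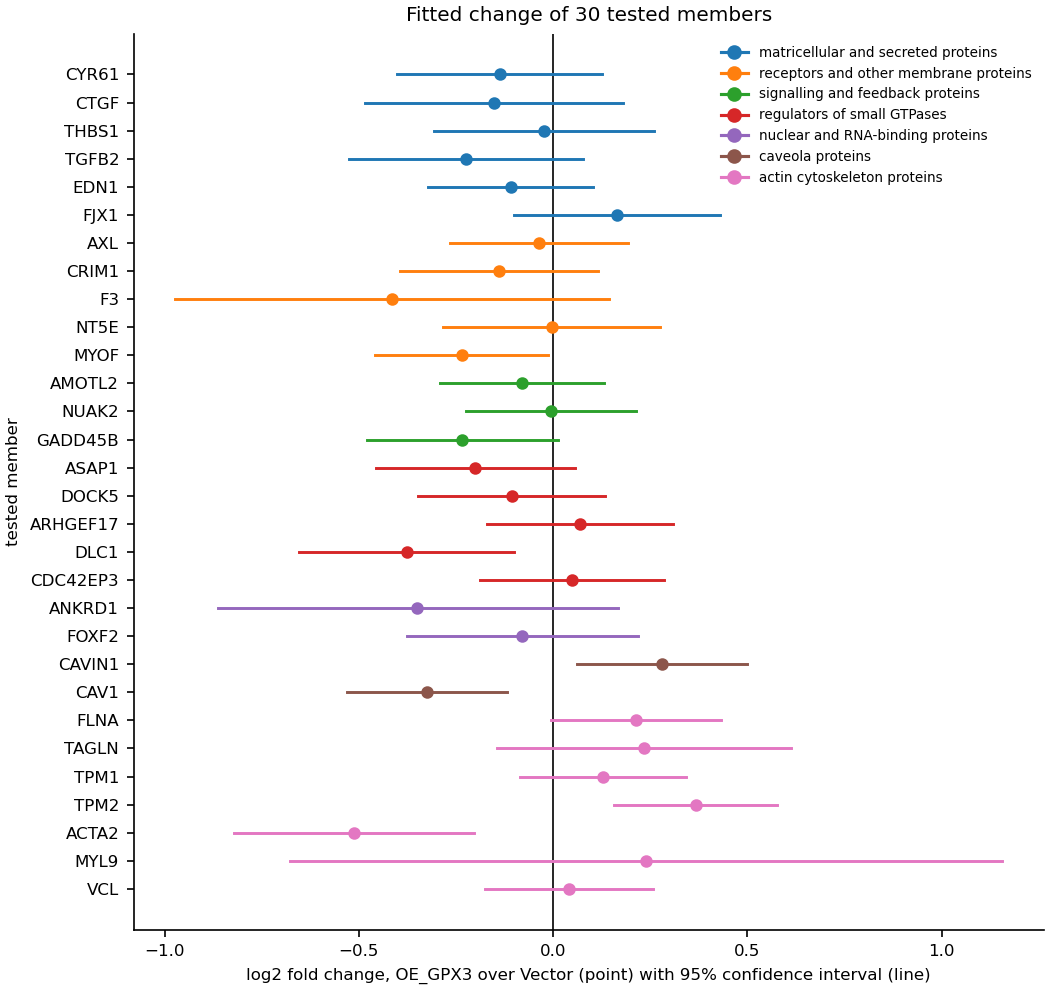
Fitted log2 fold change of OE_GPX3 over Vector for the 30 tested members (points) with 95% confidence intervals (lines), coloured by role. The intervals of TPM2 and CAVIN1 lie above 0 and those of ACTA2, CAV1, DLC1 and MYOF below it; none of the 30 passed the adjusted test.

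The signs of the fitted changes were spread unevenly over the roles, and several of them turned when single libraries were left out. All 10 tested members in the receptor, signalling and nuclear groups had changes below 0 (5 of 5, 3 of 3 and 2 of 2). These 3 groups are joined here for that shared sign, so the count describes a choice made on the values. With DESeq2's size factors in edgeR and in DESeq2, 8 of the 10 were below 0, and after the GC correction 9. Below 0 were also 5 of 6 secreted factors, 3 of 5 regulators of small GTPases and 1 of 2 caveola members, against 52.6% of all tested genes. In the actin cytoskeleton group 6 of 7 tested genes were above 0. The medians were -0.14 for receptors and other membrane proteins, -0.08 for signalling and feedback proteins, -0.21 for nuclear proteins and -0.12 for secreted factors. They were -0.11 for regulators of small GTPases, -0.02 for caveola members and 0.21 for the actin group, against -0.02 over all tested genes. Without OE_GPX3 replicate 2, 6 of those 10 were below 0, with AXL at 0.03, NT5E at 0.05, NUAK2 at 0.05 and FOXF2 at 0.06, and without Vector replicate 2, 8 of the 10 were. After the GC correction the median was -0.03 for the secreted factors, with 4 of 6 below 0, and 0.13 for the actin group; without Vector replicate 2 these medians were -0.01 and 0.11. With 1 library left out, 5 or 6 of the 7 actin genes were above 0, with medians from 0.11 to 0.28. These differences between roles were not tested, and the signs of NT5E and NUAK2, at log2 fold changes of -0.00 and -0.01, turned with the scaling: 0.01 for each with DESeq2's size factors in edgeR.

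The secreted and matricellular members include the genes most used as YAP readouts. CYR61, an integrin-binding matricellular protein encoded at chr1:85580761-85583962 (hg38, plus strand), had 401, 578 and 415 counts in Vector and 393, 404 and 383 in OE_GPX3. It stood at 22.6, 29.7 and 25.4 CPM in Vector replicates 1 to 3 and at 22.0, 23.8 and 24.8 CPM in OE_GPX3 replicates 1 to 3. The groups overlapped, with Vector replicate 2 the highest library and the OE_GPX3 values packed closely below it. Its log2 fold change was -0.14 (SE 0.13, 95% interval -0.40 to 0.13, edgeR adjusted p = 0.634), and without Vector replicate 2 it was -0.03. CTGF, its close relative and a mediator of matrix deposition, had 207, 320 and 165 counts against 197, 197 and 183, or 11.7, 16.5 and 10.1 CPM in Vector and at 11.0, 11.6 and 11.9 CPM in OE_GPX3. Again Vector replicate 2 alone was high, and Vector replicate 3 was the lowest of the 6. The log2 fold change of CTGF was -0.15 (SE 0.16, interval -0.48 to 0.18, edgeR adjusted p = 0.682), and without Vector replicate 2 it was 0.08. Counts of CTGF per count of CYR61 were 0.516, 0.554 and 0.398 for the Vector libraries and 0.501, 0.488 and 0.478 for OE_GPX3, and the groups overlapped.

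TGFB2, a transforming growth factor beta ligand, stood at 15.4, 15.8 and 13.8 CPM in Vector and 14.8, 12.3 and 11.4 CPM in OE_GPX3, a log2 fold change of -0.22 (SE 0.15). EDN1, the precursor of the vasoconstrictor endothelin 1, had 84.9, 97.3 and 86.6 CPM in Vector and 82.2, 85.05 and 81.8 CPM in OE_GPX3 (log2 fold change -0.11, SE 0.11). THBS1, a matricellular activator of latent transforming growth factor beta, had 19.7, 19.2 and 16.9 CPM against 20.5, 15.8 and 18.6 CPM (log2 fold change -0.02, SE 0.14). For TGFB2 only Vector replicate 3 and OE_GPX3 replicate 1 were out of order, and for EDN1 only Vector replicate 1 and OE_GPX3 replicate 2. The libraries of the groups were mixed for THBS1. FJX1, the human relative of the fly gene four-jointed, was the exception in the group, with 19.8, 18.5 and 21.4 CPM in Vector and 21.9, 22.0 and 22.9 CPM in OE_GPX3. Its groups did not overlap, by a narrow margin, and the change of 0.16 (SE 0.13) did not pass the test (edgeR adjusted p = 0.562).

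ANKRD1, a nuclear ankyrin repeat cofactor and a sensitive YAP target in many cells, was weakly transcribed here. Its counts were 44, 72 and 54 for Vector and 43, 50 and 32 for OE_GPX3, or 2.48, 3.70 and 3.30 CPM against 2.41, 2.95 and 2.08 CPM. The groups overlapped, with OE_GPX3 replicate 2 above Vector replicate 1. The log2 fold change was -0.35 with a wide interval of -0.86 to 0.17 (SE 0.25, edgeR adjusted p = 0.527). FOXF2, a forkhead transcription factor, had 19.3, 16.7 and 21.8 CPM in Vector and 18.7, 14.7 and 21.3 CPM in OE_GPX3, in which OE_GPX3 replicate 2 was the lowest (log2 fold change -0.08, SE 0.15). RBMS3, an RNA-binding protein, had 2, 10 and 1 counts in Vector and 1, 2 and 1 in OE_GPX3, too few for a comparison.

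**Figure D3:**
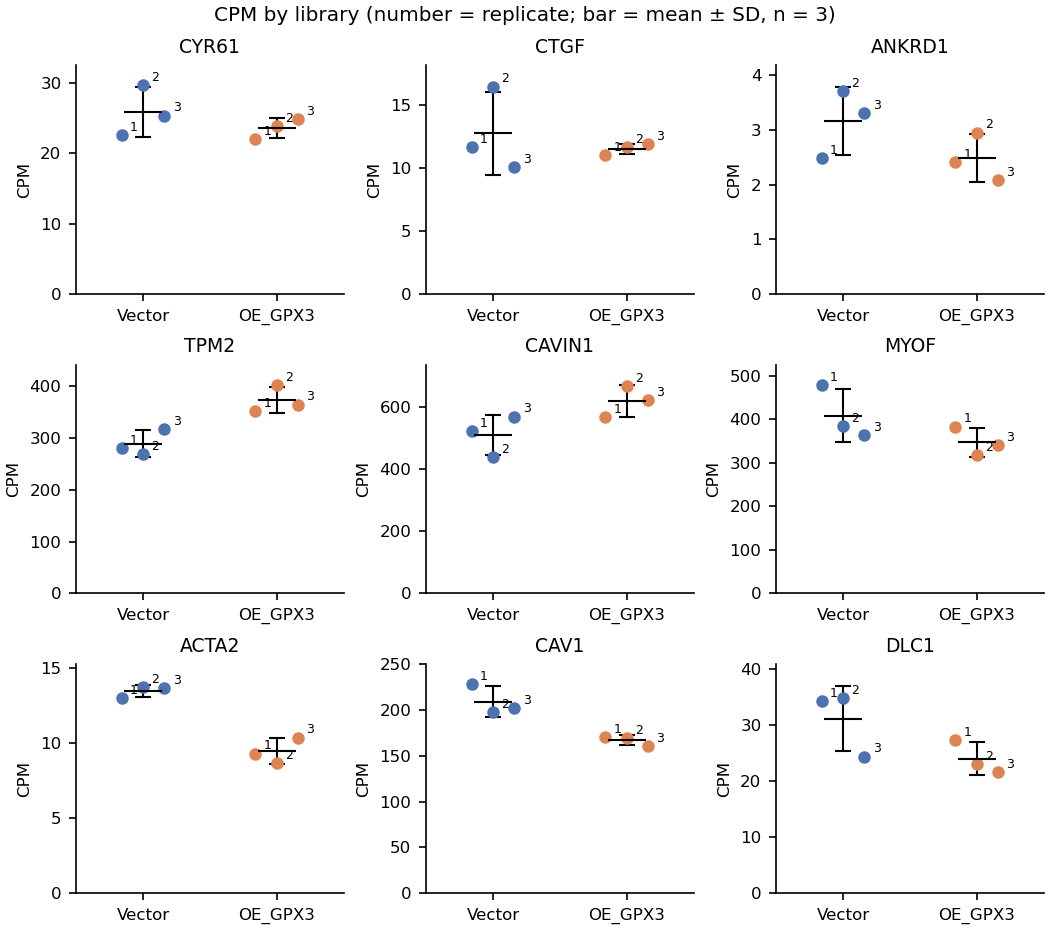
CPM of 9 members by library, with the replicate number beside each point and the mean ± SD (n = 3) as a bar; each axis starts at 0. In CYR61, CTGF and ANKRD1 (top row) Vector replicate 2 is the highest of the 6 libraries, and the groups are apart in TPM2, ACTA2 and CAV1.

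Among receptors and other membrane proteins, MYOF had the lowest unadjusted p. MYOF encodes myoferlin, a membrane repair protein, and had 8475, 7460 and 5961 counts in Vector and 6836, 5388 and 5247 in OE_GPX3, or 478, 384 and 364 CPM in Vector and 383, 318 and 340 CPM in OE_GPX3. Vector replicate 1 was well above the rest, and Vector replicate 3 lay below OE_GPX3 replicate 1. The log2 fold change was -0.24 (SE 0.11, unadjusted p = 0.0387 and adjusted p = 0.320, edgeR), and it was -0.11 without Vector replicate 1. F3, tissue factor, was the second lowest change of the 30 at -0.41 (SE 0.28, edgeR adjusted p = 0.488), on counts of 53, 67 and 37 in Vector and 52, 25 and 33 in OE_GPX3. Its CPM were 2.99, 3.45 and 2.26 against 2.92, 1.48 and 2.14, so the groups overlapped and OE_GPX3 replicate 2 was the lowest; without that library the change was -0.19. AXL, a receptor tyrosine kinase bound by GAS6, had 85.2, 81.4 and 84.4 CPM in Vector and 72.3, 74.8 and 97.6 CPM in OE_GPX3, where replicate 3 lay above every Vector library and the other 2 below. CRIM1, a transmembrane regulator of bone morphogenetic proteins, had 179, 155 and 135 CPM against 174, 118 and 133 CPM (log2 fold change -0.14, SE 0.12), with replicate 1 the highest in each group. Single libraries set that value for CRIM1: it was -0.02 without OE_GPX3 replicate 2, -0.03 without Vector replicate 1 and -0.32 without OE_GPX3 replicate 1. NT5E, the ectonucleotidase CD73, had 19.1, 16.9 and 16.7 CPM against 19.1, 16.5 and 16.9 CPM, and its mean was 17.6 ± 1.36 over Vector and 17.5 ± 1.37 over OE_GPX3 libraries (SD, n = 3 each).

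The signalling members act back on the pathway or on stress kinases. AMOTL2, an angiomotin that binds YAP and holds it at junctions, had 147, 179 and 150 CPM in Vector and 154, 147 and 150 CPM in OE_GPX3 (log2 fold change -0.08, SE 0.10). Apart from Vector replicate 2 its 5 libraries were nearly level, and without that library the change was 0.02. GADD45B, a stress-induced regulator of p38 and JNK signalling, had 40.6, 53.2 and 45.5 CPM in Vector and 34.4, 42.6 and 41.6 CPM in OE_GPX3. The groups overlapped at Vector replicate 1, and the log2 fold change was -0.23 (SE 0.12, edgeR adjusted p = 0.369). GADD45B was at -0.12 without Vector replicate 2 and -0.14 without OE_GPX3 replicate 1. NUAK2, a kinase that promotes actomyosin contractility and YAP activity, had 76.6, 88.8 and 86.1 CPM against 80.9, 77.7 and 91.9 CPM, with the groups fully mixed.

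Of the 5 regulators of small GTPases, 1 (DLC1) had an unadjusted p under 0.05 in edgeR, against 14.6% of all tested genes. DLC1, a GTPase-activating protein that turns RhoA off, had 607, 678 and 399 counts in Vector and 488, 390 and 334 in OE_GPX3, or 34.3, 34.9 and 24.4 CPM in Vector and 27.4, 23.0 and 21.7 CPM in OE_GPX3. Vector replicates 1 and 2 were above all OE_GPX3 libraries while Vector replicate 3 lay among them. The log2 fold change was -0.38 (SE 0.14, interval -0.65 to -0.10, unadjusted p = 0.00901 and adjusted p = 0.208, edgeR), and without OE_GPX3 replicate 1 it was -0.48 and was called (edgeR adjusted p = 0.0246). DLC1 was not called when any other library was left out, with values from -0.51 to -0.29 and edgeR adjusted p from 0.0977 to 0.730. ASAP1, a GTPase-activating protein for Arf proteins, had 66.3, 58.3 and 47.7 CPM against 57.6, 41.4 and 51.1 CPM (log2 fold change -0.20, SE 0.13). DOCK5, an exchange factor for Rac, had 92.8, 86.2 and 67.4 CPM against 87.9, 71.7 and 69.3 CPM (log2 fold change -0.11, SE 0.12). ARHGEF17, a guanine nucleotide exchange factor, and CDC42EP3, an effector of CDC42, had changes of 0.07 and 0.05 (SE 0.12 each), with means of 36.0 ± 3.87 and 37.7 ± 1.43 CPM for ARHGEF17 and 48.8 ± 5.44 and 50.4 ± 5.21 CPM for CDC42EP3 (SD, n = 3 each). ASAP1, DOCK5, CDC42EP3 and ARHGEF17 overlapped between groups, and in each of the 4 replicate 1 was the highest library of both groups.

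The caveola members had fitted changes of opposite sign, and neither passed the test. CAV1, caveolin 1, the scaffold of caveolae, encoded at chr7:116524785-116561184 (hg38, plus strand), had 4045, 3841 and 3311 counts in Vector and 3046, 2878 and 2482 in OE_GPX3, or 228, 198 and 202 CPM in Vector and 171, 170 and 161 CPM in OE_GPX3. All 3 OE_GPX3 libraries were below all 3 Vector libraries. The log2 fold change of CAV1 was -0.32 (SE 0.10, interval -0.53 to -0.12, unadjusted p = 0.00295 and adjusted p = 0.151, edgeR). CAVIN1, the coat protein that stabilises caveolin scaffolds, had 9235, 8534 and 9309 counts in Vector and 10099, 11311 and 9602 in OE_GPX3, or 521, 439 and 569 CPM in Vector and 566, 668 and 623 CPM in OE_GPX3, where only Vector replicate 3 and OE_GPX3 replicate 1 met. Its log2 fold change was 0.28 (SE 0.11, interval 0.06 to 0.50, unadjusted p = 0.0134 and adjusted p = 0.236, edgeR). The number of CAVIN1 counts per CAV1 count, which no scaling between libraries can alter, was 2.28, 2.22 and 2.81 for Vector and 3.31, 3.93 and 3.87 for OE_GPX3. These ratios did not overlap and were 1.52-fold higher in OE_GPX3, a description, since the 5 ratios computed were chosen after the values were seen. Without OE_GPX3 replicate 1, CAV1 and CAVIN1 were both called, at -0.34 and 0.34 (edgeR adjusted p = 0.0375 and 0.0286). Neither was called when any other library was left out: CAVIN1 was 0.18 without Vector replicate 2 (edgeR adjusted p = 0.749), and CAV1 was -0.26 without Vector replicate 1 (edgeR adjusted p = 0.485).

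The actin cytoskeleton group held the highest and the lowest change of the 30. TPM2, a tropomyosin that lines actin filaments, encoded at chr9:35681992-35690121 (hg38, minus strand), had 4973, 5219 and 5183 counts in Vector and 6273, 6792 and 5608 in OE_GPX3, or 281, 268 and 317 CPM in Vector and 352, 401 and 364 CPM in OE_GPX3. Its groups did not overlap, and the 1.29-fold difference had the smallest p of the members (log2 fold change 0.37, SE 0.10, interval 0.16 to 0.58, unadjusted p = 0.00107 and adjusted p = 0.118, edgeR). DESeq2 called it (adjusted p = 0.0213), as did edgeR without OE_GPX3 replicate 1 (adjusted p = 0.00787), while with any other library left out TPM2 was at 0.32 to 0.45 and edgeR adjusted p ranged from 0.0961 to 0.677. ACTA2, smooth muscle alpha actin, encoded at chr10:88935074-88991339 (hg38, minus strand), had 231, 267 and 224 counts in Vector and 166, 147 and 160 in OE_GPX3, or 13.0, 13.7 and 13.7 CPM in Vector and 9.31, 8.68 and 10.4 CPM in OE_GPX3. The Vector libraries were nearly equal and all OE_GPX3 libraries lay below them, a log2 fold change of -0.51 (SE 0.15, interval -0.82 to -0.20, unadjusted p = 0.0018 and adjusted p = 0.131, edgeR). ACTA2 shares 380 of its 2976 exon bases with FAS on the opposite strand, whose counts were 177, 229 and 183 for Vector and 173, 153 and 145 for OE_GPX3. No source used here says whether reads were assigned by strand, so ACTA2 is uncertain. Of the 6 smooth muscle markers that are no members, DES, LMOD1 and ACTG2 were each under 0.5 CPM on average in both groups and MYH11 was at 0.534 and 0.640 CPM. SYNPO2 was at 9.07 CPM in Vector and 8.30 in OE_GPX3, and SMTN at 22.8 and 26.5 CPM, with the OE_GPX3 libraries all higher, opposite to ACTA2. CNN1, a smooth muscle calponin among the members, had 0 counts in all 6 libraries, where 3 counts correspond to 0.154 to 0.195 CPM.

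FLNA had 3058, 2817 and 3316 CPM in Vector and 3238, 3517 and 3900 CPM in OE_GPX3, with only Vector replicate 3 and OE_GPX3 replicate 1 out of order. Its log2 fold change was 0.21 (SE 0.11, interval -0.00 to 0.43, edgeR adjusted p = 0.353). TAGLN, an actin-binding protein and a classical SRF target, had 7.79, 5.61 and 7.09 CPM in Vector and 6.45, 10.0 and 7.59 CPM in OE_GPX3 (log2 fold change 0.23, SE 0.19). OE_GPX3 replicate 2 alone was high for TAGLN, and the gene shares 446 exon bases with PCSK7 on the opposite strand, so it is uncertain too. TPM1, the tropomyosin paralog of TPM2, had 111, 100 and 98.5 CPM against 121, 114 and 103 CPM (log2 fold change 0.13, SE 0.11). Counts of TPM2 per count of TPM1 overlapped between groups, at 2.53, 2.67 and 3.22 in Vector and 2.90, 3.51 and 3.53 in OE_GPX3. VCL, vinculin, which links integrin adhesions to actin, had 213, 187 and 187 CPM against 230, 183 and 191 CPM (log2 fold change 0.04, SE 0.11), and 1109 of its 9992 exon bases are shared with AP3M1. MYL9, a regulatory light chain of smooth muscle and non-muscle myosin, had only 10, 11 and 16 counts in Vector and 13, 9 and 19 in OE_GPX3, or 0.564, 0.566 and 0.978 CPM against 0.729, 0.531 and 1.23 CPM (log2 fold change 0.24, SE 0.45), and the groups were mixed.

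**Figure D4:**
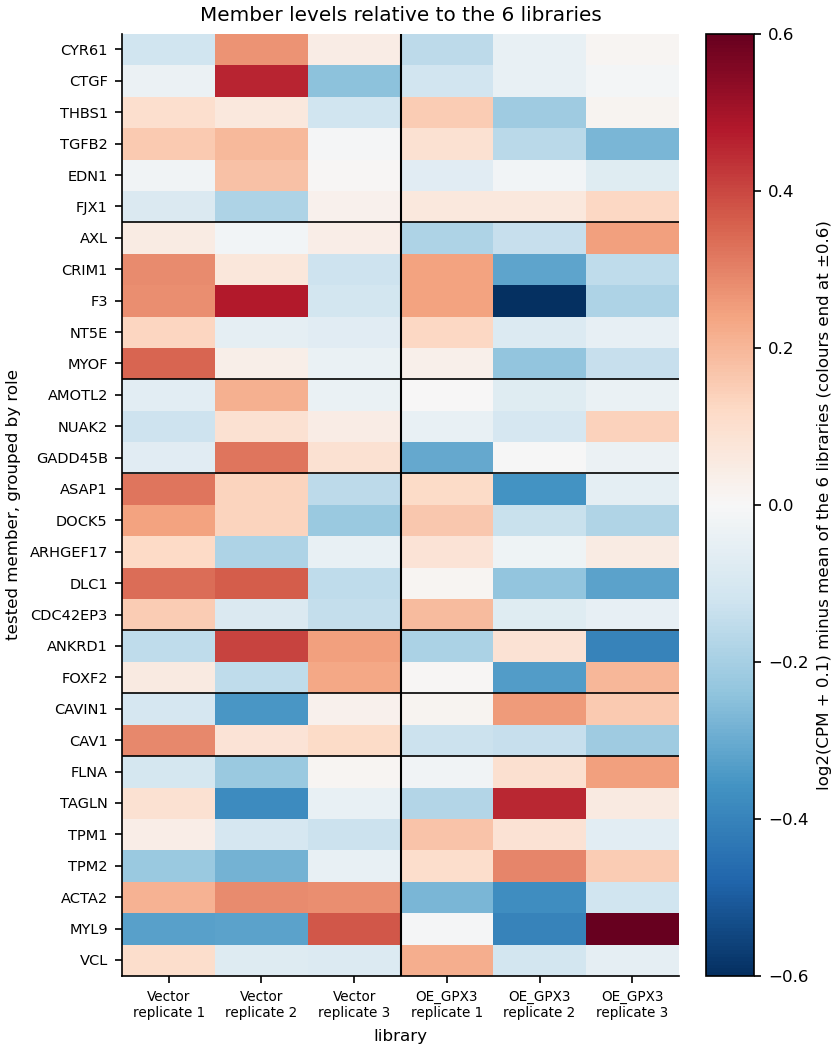
Level of each tested member in each library as log2(CPM + 0.1) minus the mean of the 6 libraries, with lines between role groups and between Vector (left) and OE_GPX3 (right); red is higher. CYR61, CTGF, ANKRD1 and GADD45B are highest in Vector replicate 2, while CAV1 and ACTA2 are above their mean in all Vector libraries and TPM2 in all OE_GPX3 libraries.

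The members also varied between libraries of the same group. Vector replicate 2 was the highest of the 6 libraries for 10 of the 30 members, among them CYR61, CTGF, ANKRD1, AMOTL2, EDN1 and GADD45B, and OE_GPX3 replicate 2 was the lowest for 11. The shares over all tested genes were not computed, so these counts are not shown to be particular to the members. The median level of the members relative to the 6 libraries was 0.07, 0.06 and -0.04 in Vector and 0.02, -0.09 and -0.04 in OE_GPX3 on the log2 scale. Vector replicate 3 thus lay beside OE_GPX3 replicate 3, and OE_GPX3 replicate 1 between the Vector libraries.

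The regulators above these targets were examined next, with lists of genes that were not members. Of 10 coactivators, TEAD factors and cofactors, 8 were tested and 0 were called by edgeR, with 1 at an unadjusted p under 0.05 and a median log2 fold change of -0.11. TEAD1 averaged 53.2 CPM (SD 7.95) over the Vector libraries and 44.2 CPM (SD 1.94) over OE_GPX3, a change of -0.27 (SE 0.12) with an edgeR adjusted p = 0.296. YAP1 had -0.19, WWTR1, which encodes TAZ, -0.08, TEAD2 0.19 and TEAD4 0.10, and those of WWTR1 and TEAD4 turned to 0.08 and -0.03 after the GC correction. Of 7 genes of SRF and its cofactors, 5 were tested and 0 called, with 1 at an unadjusted p under 0.05 in edgeR. SRF itself had 0.14 (SE 0.11; -0.00 after the GC correction), FHL2, a LIM-domain partner of SRF, -0.28 (SE 0.12) and FHL1 -0.29 (SE 0.16).

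Other target genes were mixed in direction. Of 37 further YAP/TAZ targets, 30 were tested, 1 was called higher and 0 lower, and 9 had an unadjusted p under 0.05 in edgeR, 4 higher and 5 lower, with a median of -0.08. Over all tested genes 0.263% were called, 14.6% had an unadjusted p under 0.05 and 52.6% were below 0, which is the background for the counts of the other lists too. WTIP, a LIM protein of the Ajuba family that binds LATS kinases, rose 1.55-fold, with 20.04 CPM (SD 3.76) over the Vector libraries and 31.1 CPM (SD 2.32) over OE_GPX3, at an edgeR adjusted p = 0.0255. Its log2 fold change of 0.63 was 0.51, 0.59 and 0.65 without Vector replicate 2, OE_GPX3 replicate 2 or OE_GPX3 replicate 3, and 0.56 after the GC correction, and in these 4 settings, in the FPKM fits (0.42 to 0.63) and with the block and GC content together (0.56) it was not called. AREG, the growth factor amphiregulin, averaged 80.1 CPM (SD 8.26) over the Vector libraries and 59.2 CPM (SD 5.80) over OE_GPX3, a change of -0.44 (SE 0.11) with an edgeR adjusted p = 0.0714. Of 38 further SRF and actin cytoskeleton genes, 36 were tested, 0 called, and 4 had an unadjusted p under 0.05 in edgeR, 3 higher and 1 lower, with a median of 0.05 and 23 above 0. CAV2, the partner of caveolin 1, averaged 115 CPM (SD 10.2) over the Vector libraries and 90.8 CPM (SD 11.03) over OE_GPX3, with a log2 fold change of -0.34 (SE 0.11, edgeR adjusted p = 0.159) close to that of CAV1. MYL6, a myosin essential light chain, had 0.40 (SE 0.12, edgeR adjusted p = 0.159).

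Members with GC-rich transcripts tended to the higher fitted changes, as genes did in general. Across the 30 tested members the log2 fold change and the GC content of the longest transcript had a Pearson r of 0.528 and a Spearman coefficient of 0.501, and across 14450 tested genes the values were 0.433 and 0.526. These correlations are over genes of the same 6 libraries, which are not independent replicates. The 15 members at or above their median GC content had a median change of -0.01, with 7 above 0. The 15 below it had -0.14, with 3 above 0. Over all tested genes, split at their own median, these values were 0.10, with 5071 of 7225 above 0, and -0.13, with 1783 of 7225. TPM2, CAVIN1 and FLNA had GC contents of 55.3%, 59.9% and 62.2%, and lay above the trend of all genes. CAV1, DLC1 and MYOF, at 46.2%, 45.7% and 46.6%, lay below the trend, which was -0.08 at 45.6% and -0.06 at 47.0%. ACTA2 at 51.8% and GADD45B at 59.6% lay below it too. When a trend of each library with GC content was taken out, TPM2 had a log2 fold change of 0.29, CAVIN1 0.15, FLNA 0.06, CAV1 -0.25, DLC1 -0.29 and MYOF -0.17, while ACTA2 had -0.53, GADD45B -0.36, CYR61 -0.13, CTGF -0.17 and ANKRD1 -0.23. None of the members was called then, and 4 genes, or 0.0277%, were called in all. The log2 difference of the ratio of CAVIN1 to CAV1 was 0.61 before and 0.40 after the correction, and that of TPM2 to ACTA2 0.88 and 0.83. Counts of TPM2 per count of ACTA2 were 21.5, 19.6 and 23.1 for Vector and 37.8, 46.2 and 35.05 for OE_GPX3, apart as the separate groups of both genes make them. The part of GC content in the remaining differences was not tested.

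**Figure D5:**
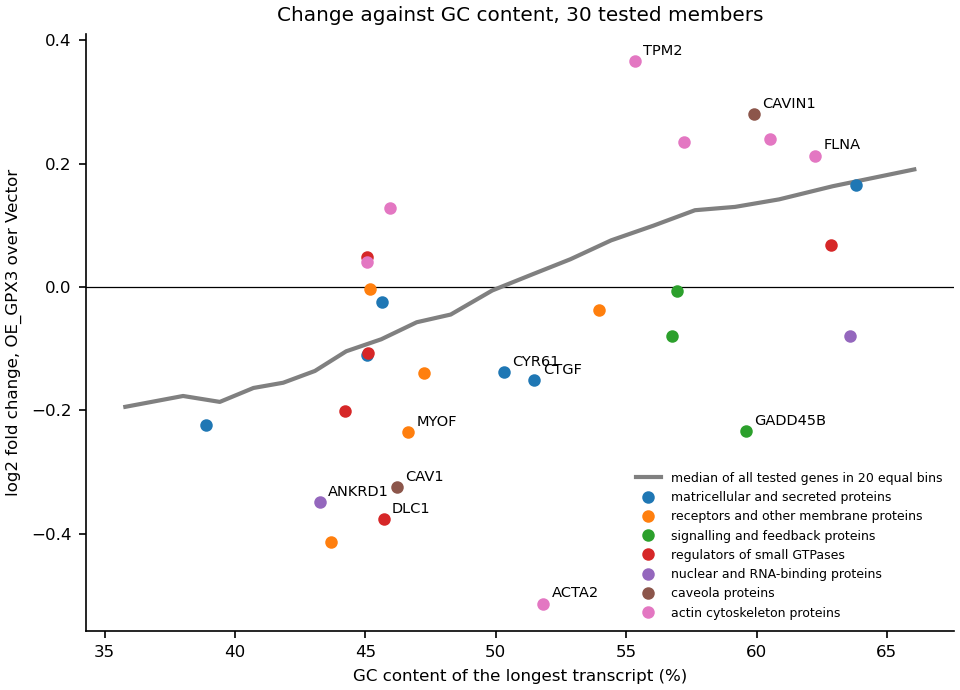
Log2 fold change of OE_GPX3 over Vector against the GC content of the longest transcript for the 30 tested members (points, coloured by role) and the median of all tested genes in 20 bins of GC content (grey line). TPM2 and CAVIN1 lie above the line on its GC-rich side, and ACTA2, GADD45B, CAV1 and DLC1 lie below it.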

How the data were processed

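Raw counts for each gene in each of the 6 libraries, and FPKM beside them, were deposited by the authors. The genome build is hg38 according to the submitters' processing notes; no source used here names the aligner, counter or strand setting. The labels' protocol describes small RNA enrichment, while the counts used lie on long protein-coding genes. The deposited FPKM are proportional to count per gene length within each library, with a scaling between libraries that is not given. All 58735 genes have the positions of GENCODE release 29.

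The filter filterByExpr (at least 10 counts, total of at least 15) left 14458 genes, which were scaled by TMM and tested by edgeR 4.0.16 (quasi-likelihood, robust, two-sided, Benjamini-Hochberg over all tested genes, R 4.3.3). Standard errors and 95% intervals come from that fit. DESeq2 1.42.0 and limma 3.58.1 on log2(FPKM + 1) were alternatives. The GC correction takes a lowess trend (span 0.3) of each library's log CPM on GC content of the longest GENCODE transcript out as an offset; 58676 genes have a value. The biological coefficient of variation was 0.110. On data simulated for OE_GPX3 against Vector (14283 genes), 46 of 67 genes changed 1.5-fold were called (68.7%) and 67 of 67 changed 2-fold, and 6 of 185 calls were false. Changes were put only into genes above a minimum level, and every gene had the spread usual for its level. No library stood apart in the simulation and no GC trend was put in. Far more genes were called there than in the data, so the share called in the data may be lower.

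Members and lists were chosen with earlier results of these data known. The rule for named genes gives full values for CYR61, CTGF, ANKRD1, members with an unadjusted p under 0.05 and the 3 highest and 3 lowest changes, shorter values for other members, and from each list at most 4 genes of smallest p, beside YAP1, WWTR1, TEAD1, TEAD4 and SRF. Alternatives were 3 other scalings, other filters, protein-coding genes alone, a replicate block, the GC correction, FPKM and leaving out each library. Ratios were chosen after the values were seen and carry no test. The floor of 3 counts covers counting error only. 1 further list and 1 marker are not reported here.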

Additional observations from a re-analysis of the deposited data

How the results depend on the processing

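Over 19 alternatives, 19 of the 30 tested members kept the sign of their change in every setting that tested them, among them CYR61, ANKRD1, TPM2, ACTA2, CAV1, CAVIN1, DLC1, MYOF and GADD45B. In the simulation 68.7% of 1.5-fold changes were called, all in genes with higher levels than ANKRD1, F3 and MYL9. The share in the data may be lower. ANKRD1, F3, MYL9 and RBMS3 rest on few counts. The cause of the changes listed here was not tested, except that a setting with fewer libraries or other genes tests less or other data.

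Against 38 genes called in all, total counts alone gave 68, no filter 129, DESeq2 110, the GC correction 4, FPKM with pseudocounts of 1 and 0.1 4 each and FPKM without a filter 1, and leaving out 1 library gave from 1 (without OE_GPX3 replicate 2) to 657 (without OE_GPX3 replicate 1). Members called were 0 with all 6 libraries in edgeR without the replicate block, 1 in DESeq2, and from 0 to 4 with 1 library left out. The median log2 fold change of the members was -0.14 with total counts alone and ran from -0.0973 to 0.0082 with 1 library left out. Whether replicate numbers pair the libraries was not settled. Deviations of same-numbered libraries correlated at 0.192, 0.0104 and 0.114, against -0.151 to 0.0493 between libraries of unlike number. Vector replicate 2 correlated best with OE_GPX3 replicate 3. With the replicate block 231 of 14458 genes and 2 members (TPM2 and CAV1) were called, and with the block and the GC correction 49 genes and 0 members.

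Signs turned in 11 members. With the GC correction, and with the replicate block added to it, the log2 fold changes were 0.0618 and 0.0571 for THBS1, 0.0899 and 0.0894 for NT5E, -0.0886 and -0.0843 for ARHGEF17, 0.0822 and 0.0862 for WWTR1, -0.0316 and -0.0347 for TEAD4 and -0.0016 and -0.0010 for SRF. With DESeq2's size factors in edgeR, in DESeq2 and in the 3 FPKM fits NT5E was 0.0112, 0.0119, 0.0089, 0.0109 and 0.0089, and NUAK2 was 0.0087, 0.0093, 0.0088, 0.0091 and 0.0088. With total counts alone CDC42EP3 was -0.0101 and VCL -0.0164. With 1 library left out the changes ran, for CTGF from -0.28 to 0.0799, THBS1 from -0.11 to 0.0803, AXL from -0.17 to 0.0436, NT5E from -0.0694 to 0.0618, AMOTL2 from -0.13 to 0.0159, NUAK2 from -0.0690 to 0.0530, ARHGEF17 from -0.0044 to 0.15, CDC42EP3 from -0.0396 to 0.14, FOXF2 from -0.20 to 0.0648, MYL9 from -0.13 to 0.55 and VCL from -0.0638 to 0.11, and for WWTR1 from -0.21 to 0.0892. Of the ratios, whose alternatives were chosen after seeing the data, FLNA to VCL turned to -0.0729 and CTGF to CYR61 to -0.0355 with the GC correction, and CTGF to CYR61 ran from -0.13 to 0.11 with 1 library left out.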
